A study of Homo sapiens with 36 samples.

Results

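The comparison described here sets the BJ fibroblast line labelled EL against the line labelled EH, by the ribosome footprints of cells treated with cycloheximide. Its members are the 2 EL and the 2 EH cycloheximide libraries, chosen by their titles, and they are 4 of the 36 libraries of the series. The rest of the series covers a related BJ line labelled ELR, harringtonine footprints and total RNA of the 3 lines, and a breast epithelial model of transformation. BJ is a line of human skin fibroblasts, and the labels give EL, EH and ELR as lines derived from it without spelling out the letters or the genes introduced. Both lines grew in Knockout DMEM with 10% serum and medium 199, and no label records a treatment other than the drug that halts the ribosomes. That drug was cycloheximide at 100 µg/ml for 90 s, which stops elongating ribosomes where they stand. The labels do not say whether a line was a clone or a pool, so a difference between EL and EH cannot be told apart from a difference between the cells from which each was founded.

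As background, BJ series of this kind are known for introducing the catalytic subunit of telomerase, the early region of SV40 and an oncogenic HRAS step by step. The large T antigen of SV40 binds the retinoblastoma proteins, which hold E2F factors in check. Which of these each line held was not taken from the labels, and viral genes were not analysed here. Dermal fibroblasts are the cells that secrete and cross-link collagen, elastin and proteoglycans. They also sense viral nucleic acid and answer interferon through a complex of STAT proteins with IRF9, which binds interferon-stimulated response elements (ISREs) in promoters.

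Footprint totals were 2544742 and 2123539 counts in the EL libraries and 1428633 and 1178474 in the EH libraries. Replicates varied little beyond sampling noise, with a chi-square per gene of 1.17 for the EL pair and 1.10 for the EH pair (p = 1.06e-32 over 10638 genes and 1.26e-11 over 9894 genes). No label says that replicates were separate cultures, so the p-values measure the spread between these libraries, which may be technical. Values are given as CPM, counts relative to the trimmed-mean scaled total of their library, for the best covered transcript of each gene. They are not divided by length and are compared only within a gene. The 12 fibroblast markers were all detected, led by VIM, and summed to 14190 and 14222.5 CPM in the EL libraries, against 39494 and 40514 in the EH libraries. Of markers of other cells, CDH1, KRT5 and ESRP1 (epithelial), PECAM1, CDH5 and ESAM (endothelial) and CD3E and ITGAM (leukocyte) had no count in any of the 4 libraries. The 10 epithelial markers summed to 1321 and 1391 CPM in EL and 1598 and 1563 CPM in EH, led by KRT18. The 8 leukocyte markers summed to 146 and 140 CPM in EL and 120 and 107 CPM in EH, led by CD68. Fewer fibroblast-like cells and less of these messages per cell cannot be told apart in such bulk samples.

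Of 9999 genes tested with edgeR, 1912 (19.1%) were higher and 2236 (22.4%) lower in EL than in EH at an adjusted p under 0.05, 4148 (41.5%) in all. At least 2-fold differences were fewer, at 471 genes (4.71%) higher and 805 (8.05%) lower. The log2 change, EL minus EH, had a median near 0 over all genes (−0.0052). With total counts in place of the scaling, the share of calls that were higher was 60.7% rather than 46.1%, and the median became 0.13. DESeq2 called 1050 genes higher and 1407 lower, and 1045 and 1474 were called when the spread of the more variable breast cell libraries was used. Against this background the interferon list stood high and the matrix lists low, as the plot of list members shows, while damage-response, replication genes and signalling genes moved less. Counts of list members are descriptions, with no test of the list.

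**Figure D1:**
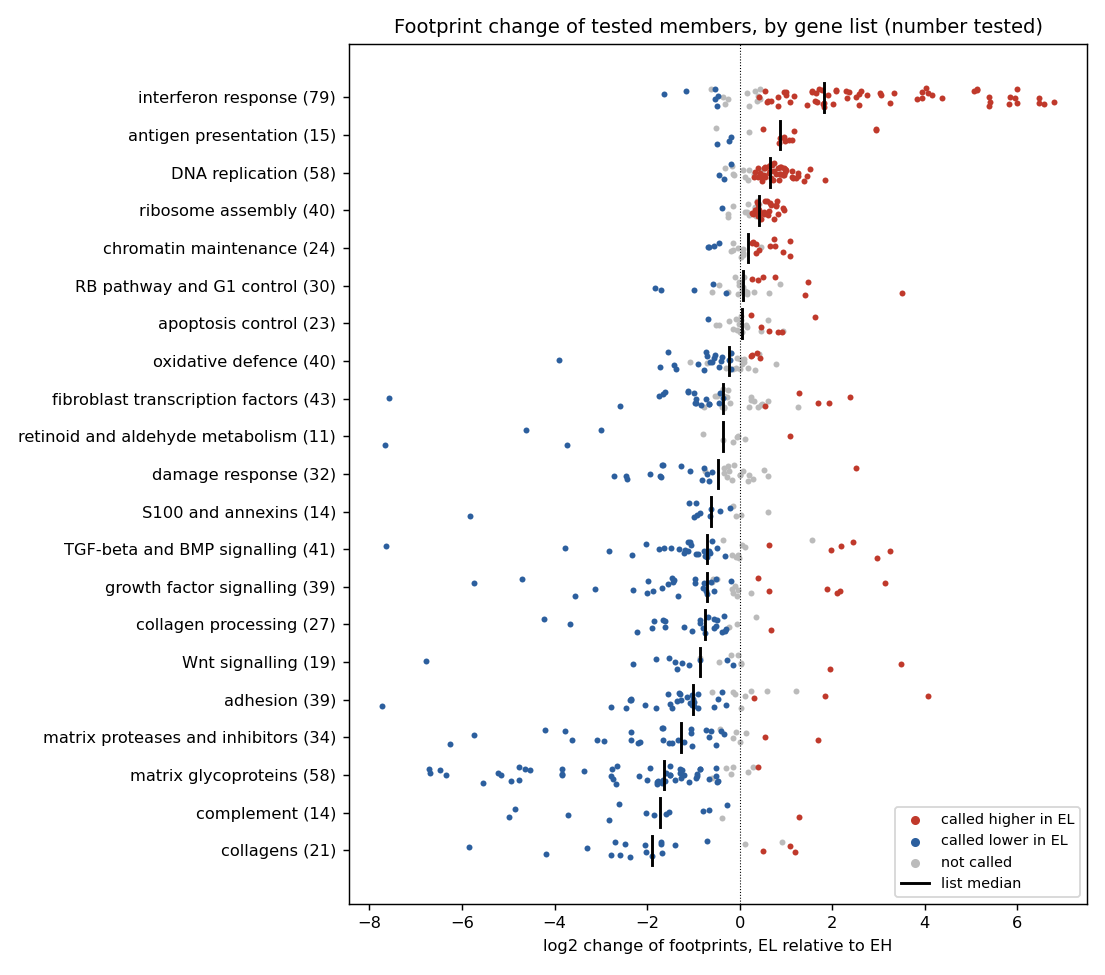
Log2 change in cycloheximide footprints (EL minus EH, x axis) of each tested member of the gene lists (rows). Red points were called higher and blue points lower at an adjusted p under 0.05, grey points were not called, and black bars are medians, which run from −1.90 for collagens to 1.81 for the interferon response.

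Of the 21 lists, the interferon response had the highest median change in EL. Of 88 listed genes 79 could be tested, and 61 of them were higher and 6 lower in EL, beside 19.1% and 22.4% of all genes tested. Its median log2 change was 1.81, and 52 members were at least 2-fold higher. All 12 tested sensors of foreign nucleic acid and all 6 genes of the ISG15 pathway were higher, with medians of 3.43 and 4.26. Among 42 antiviral effectors, 38 were higher and 2 lower. None of the 7 interferon genes listed had enough counts to be tested, so the ligand was not measurable at this depth.

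Sensors differed by 10-fold or more in several cases. IFIH1 (MDA5, GRCh37 chr2:163123584-163175194), a helicase that recognises long viral RNA, had 61.6 and 48.5 CPM in the EL libraries, against 0.738 and 0.898 in the EH libraries. That rests on 270 counts in EL and 2 in EH, a ratio of 68.7 with a 95% counting interval of 18.8 to 570. DDX58 (RIG-I), which senses short viral RNA with a triphosphate end, had 189 and 194 CPM in EL and 15.5 and 10.8 CPM in EH, a log2 change of 3.83 (SE 0.167, adjusted p = 5.89e-32). OAS3, which makes the signal that activates RNase L, had 335 and 341 CPM in EL and 16.2 and 26.1 CPM in EH (log2 change 4.03). Its relative OASL had 88.4 and 86.6 CPM in EL and 2.21 and 2.7 CPM in EH (log2 change 5.13). Neither EL library overlapped an EH library for any of these sensors. That also held for HRAS, RB1 and MDM2, which were not called, so it does not set the sensors apart. The share of all genes without overlap is not given here. Differences were smaller for IFI16, a DNA sensor, at 203 and 211 CPM in EL and 129 and 146 CPM in EH (log2 change 0.59, SE 0.0919, adjusted p = 1.12e-07). TMEM173 (STING), the adaptor that relays DNA sensing, went the other way, with 31 and 31.7 CPM in EL and 91.5 and 106 CPM in EH (log2 change −1.65, SE 0.151, adjusted p = 2.46e-15).

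Receptors and early signalling genes were mixed, with 5 of 19 higher and 4 lower, near the 19.1% and 22.4% of all genes. IFNAR1, a chain of the type I interferon receptor, had 24.9 and 29.5 CPM in EL and 43.6 and 24.3 CPM in EH, which was not called (log2 change −0.36, adjusted p = 0.18). The EH libraries disagreed, and the change was 0.15 without EH replicate 1 and −0.68, a call, without EH replicate 2. Its partner chain IFNAR2 was not called either (16.3 and 9.52 CPM in EL, 9.6 and 9.88 CPM in EH, adjusted p = 0.355), and its log2 change of 0.43 became −0.021 without EL replicate 1. JAK1, the kinase on the receptor, was lower in EL at 134 and 140 CPM, against 189 and 188 CPM in EH (log2 change −0.46, adjusted p = 1.87e-05), although this was not called with the breast cell spread. Members that rose included STAT2, IRF9 and IRF7. STAT2 had 133 and 132 CPM in EL and 65.7 and 71.9 CPM in EH (log2 change 0.95), and the DNA-binding partner IRF9 had 129 and 146 CPM in EL and 33.2 and 35 CPM in EH (log2 change 2.01). IRF7, the factor that amplifies interferon transcription, had 43.8 and 44.4 CPM in EL, against 0.738 and 5.39 CPM in EH (log2 change 3.93, SE 0.369, adjusted p = 6.44e-15, with 3.02 without EH replicate 1 and 5.80 without EH replicate 2). STAT3, which serves other cytokines, fell, with 160 and 159 CPM in EL and 221 and 224 CPM in EH (log2 change −0.48).

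Effectors that block viruses at different steps rose together in EL. MX2, a GTPase that holds back viral capsids, had 149 and 161 CPM in EL and 3.69 and 3.59 CPM in EH (log2 change 5.38, SE 0.236, adjusted p = 7.21e-32). SAMHD1, which empties the nucleotide pool that reverse transcriptases need, had 319 and 304 CPM in EL and 35.4 and 40.4 CPM in EH (log2 change 3.05). IFIT1, which binds viral RNA caps, had 505 and 479 CPM in EL and 79 and 88.1 CPM in EH (log2 change 2.57). These are separate gene families on separate chromosomes. PLSCR1, a membrane scramblase, had 293 and 290 CPM in EL and 28.1 and 34.1 CPM in EH (log2 change 3.24), and LGALS3BP, a secreted glycoprotein, had 504 and 521 CPM in EL and 102 and 104 CPM in EH (log2 change 2.31). EIF2AK2 (PKR), which halts translation on sensing viral RNA, had 201 and 179 CPM in EL and 71.6 and 46.7 CPM in EH (log2 change 1.66). The IFITM genes, membrane proteins that block viral entry, are close paralogs whose reads may be shared. IFITM1 had 661 and 694 CPM in EL and 209 and 183 CPM in EH (log2 change 1.78), whereas IFITM2 was lower in EL at 124 and 136 CPM, against 186 and 189 CPM in EH (log2 change −0.53). TRIM22, a restriction factor, was not called in footprints (46.5 and 53.9 CPM in EL, 48 and 40.4 CPM in EH, adjusted p = 0.477), while its RNA stood at 310 CPM in the single EL library and 51.4 CPM in the single EH library.

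The ISG15 pathway attaches the ubiquitin-like protein ISG15 to newly made proteins. ISG15 itself had 793 and 785 CPM in EL and 39.9 and 49.4 CPM in EH (log2 change 4.16, SE 0.0929, adjusted p = 7.03e-50). The activating enzyme UBA7 had 28 and 22.2 CPM in EL and 11.1 and 14.4 CPM in EH (log2 change 1.01), although it was not called by DESeq2, without EL replicate 1 (0.83) or without EH replicate 1 (0.81). The conjugating enzyme UBE2L6 had 134 and 117 CPM in EL and 42.1 and 34.1 CPM in EH (log2 change 1.71). The ligase HERC5 averaged 83.1 CPM in EL and 0.738 CPM in EH. Its fitted log2 change was 6.56, or 10.43 without EH replicate 1 and 5.76 without EH replicate 2. Its relative HERC6 had 96 and 108 CPM in EL and 4.43 and 5.39 CPM in EH (log2 change 4.37). USP18, the protease that removes ISG15 and dampens the receptor, had 82 and 92.9 CPM in EL and 2.21 and 2.7 CPM in EH (log2 change 5.13, SE 0.305, adjusted p = 2.21e-24). Activating, conjugating, ligating and removing enzymes were thus all higher in EL.

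Promoters of this group were searched for the core of the ISRE, GAAANNGAAA, on both strands of the 250 bases before the RefSeq start (GRCh38.p14). It was found in 23 of 46 interferon genes called higher that had a promoter entry (50%) and in 24 of 58 interferon genes in all (41.4%). The same letters were in 3.07% of 27305 promoters and in 2.3% of the 8341 genes tested that had an entry. They were in 8.47% of those at least 2-fold higher in EL and in 3.06% of those at least 2-fold lower. The higher set includes interferon genes with a match just counted, such as BST2, IFI6 and ISG15, so its share is not a separate observation. The share without the interferon list was not computed. The 120 bases before the start are printed for 6 interferon genes that hold a match and were called higher, to show how the element sits against the start. Each reads toward the gene, with every match in capitals on either strand; in HERC5 and IFI27, TTTC at the left of a match marks an element on the other strand.
HERC5 (chr4:88456999-88457118, plus strand): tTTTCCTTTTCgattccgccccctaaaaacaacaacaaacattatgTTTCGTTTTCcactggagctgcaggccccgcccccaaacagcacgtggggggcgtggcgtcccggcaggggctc
IFI44L (chr1:78620328-78620447, plus strand): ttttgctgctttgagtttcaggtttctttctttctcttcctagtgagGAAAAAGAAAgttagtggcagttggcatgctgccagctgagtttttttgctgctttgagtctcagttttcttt
IFIH1 (chr2:162318685-162318804, minus strand): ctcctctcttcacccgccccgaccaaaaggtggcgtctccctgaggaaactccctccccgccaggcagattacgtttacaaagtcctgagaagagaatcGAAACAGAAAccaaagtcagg
IFI27 (chr14:94110616-94110735, plus strand): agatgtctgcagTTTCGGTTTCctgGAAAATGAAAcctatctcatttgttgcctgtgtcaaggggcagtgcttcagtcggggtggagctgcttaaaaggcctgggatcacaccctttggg
EPSTI1 (chr13:42992242-42992361, minus strand): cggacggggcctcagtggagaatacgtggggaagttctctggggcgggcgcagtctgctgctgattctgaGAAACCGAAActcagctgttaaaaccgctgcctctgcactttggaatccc
ISG20 (chr15:88638896-88639015, plus strand): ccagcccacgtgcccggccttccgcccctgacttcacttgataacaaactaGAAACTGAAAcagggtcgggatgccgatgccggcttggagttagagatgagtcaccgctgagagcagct
The match nearest the start ended from 11 bases (IFIH1) to 85 bases (IFI27) before it. Within the 120 bases printed, HERC5 and IFI27 each hold a further match upstream. Over the 250 bases searched, HERC5 and IFIH1 hold 3 matches each, and IFI44L and IFI27 hold 2 each. No match in a window says only that these letters are absent from it, as for DDX58, IRF9 and OAS1. Among the genes printed, ISG20, a nuclease that degrades viral RNA, had 21.2 and 17.7 CPM in EL and 0.738 and 0 CPM in EH (ratio 48.3, interval 8.47 to 1928, with a fitted log2 change of 8.36 without EH replicate 1 and 4.63 without EH replicate 2). IFI44L had 37.8 and 45.8 CPM in EL and 0.738 and 0 CPM in EH, 1 count in all (ratio 102, interval 18.1 to 4058), with a fitted log2 change of 9.44 without EH replicate 1 and 5.71 without EH replicate 2. These intervals cover counting error only.

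Genes of antigen presentation leaned the same way, with 10 of 15 tested higher and 3 lower, beside 19.1% and 22.4% of all genes, and a median log2 change of 0.87. HLA-B, a class I chain that displays peptides to T cells, had 552 and 558 CPM in EL and 78.2 and 64.7 CPM in EH (log2 change 2.94, SE 0.0881, adjusted p = 6.55e-42). Class I chains are near-identical and variable between people, so their counts are uncertain. B2M, the invariant partner chain, had 2734 and 2709 CPM in EL and 1541 and 1470 CPM in EH (log2 change 0.85, SE 0.0334, adjusted p = 9.43e-35). PSME2, a cap of the immunoproteasome, had 393 and 377 CPM in EL and 180 and 161 CPM in EH (log2 change 1.17). The chaperone PDIA3, by contrast, had 444 and 489 CPM in EL and 678 and 632 CPM in EH (log2 change −0.50). The other 2 lower members were CALR and CANX, at log2 changes of −0.24 and −0.20, which were not called with the breast cell spread. TAP1, TAP2, TAPBP, PSMB9 and HLA-E were listed at 0 counts in all 4 libraries, and their RNA was 0 CPM in both lines. Whether reads of these genes could be counted at all was not tested, so the zeros are not taken as absence of the message.

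**Figure D2:**
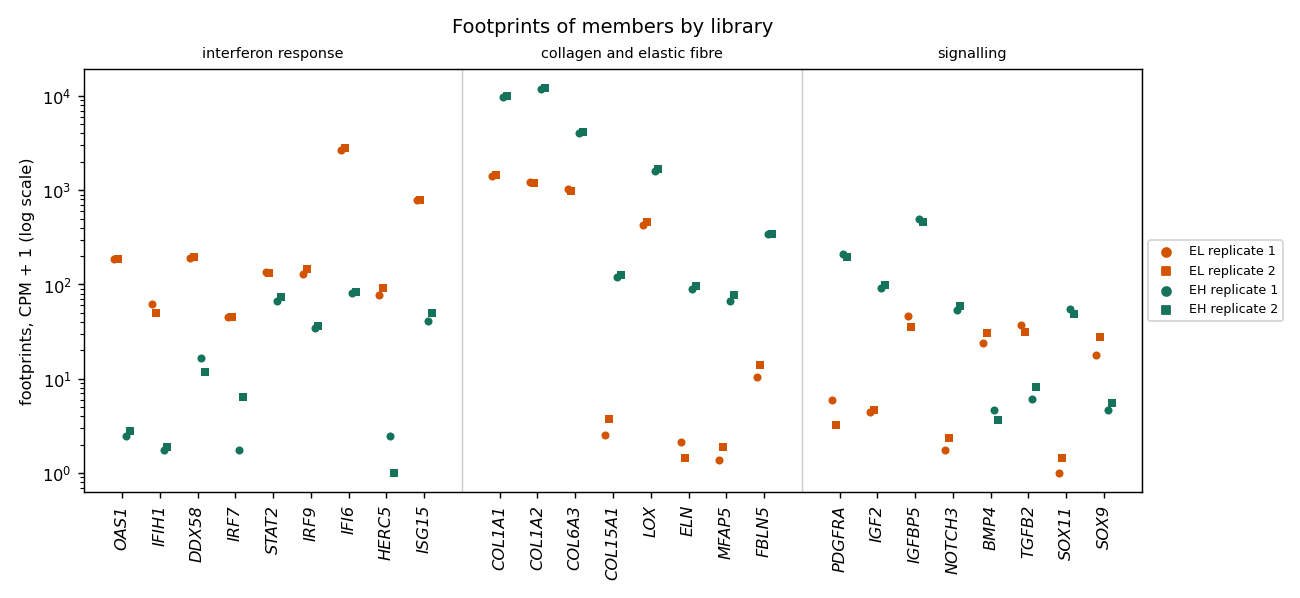
Footprints in each library (CPM + 1, log axis) for interferon, matrix and signalling genes, with EL libraries to the left of EH libraries. For ISG15 the EL points sit at 793 and 785 CPM, above EH at 39.9 and 49.4 CPM, and for ELN they sit at 1.13 and 0.453 CPM, below EH at 87.8 and 95.2 CPM.

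Damage-response genes, which arrest the cycle, start apoptosis or repair DNA, were lower in EL more often than higher. Of 32 tested, 15 were lower and 1 higher (2 without EL replicate 1), with a median log2 change of −0.47, against 22.4% and 19.1% of all genes. CDKN1A (p21), which stops the cyclin-dependent kinases, had 37.4 and 50.8 CPM in EL and 130 and 154 CPM in EH (log2 change −1.69, SE 0.134, adjusted p = 3.18e-18). The death receptor FAS had 8.32 and 13.1 CPM in EL and 59.1 and 57.5 CPM in EH (log2 change −2.46, SE 0.229, adjusted p = 4.59e-15). TNFRSF10D, a decoy receptor for the ligand TRAIL, had 8.32 and 8.16 CPM in EL and 65.7 and 40.4 CPM in EH (log2 change −2.71). Other members that fell were PHLDA3, a brake on AKT (9.83 and 8.61 CPM in EL, 33.2 and 38.6 CPM in EH), and RPS27L, a ribosomal protein relative (132 and 137 CPM in EL, 283 and 285 CPM in EH). MDM2, an E3 ligase, was not called, at 49.9 and 41.7 CPM in EL and 50.2 and 53 CPM in EH (log2 change −0.16, adjusted p = 0.488). BAX, which opens mitochondria in apoptosis, was not called either (log2 change −0.23, adjusted p = 0.0504), though it was without EL replicate 2 (log2 change −0.33) and with means over transcripts (−0.26). The member that rose was PLK2, a kinase of centriole duplication, with 197 and 186 CPM in EL and 35.4 and 31.4 CPM in EH (log2 change 2.51, SE 0.133, adjusted p = 3.97e-27).

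CDKN2A (GRCh37 chr9:21967751-21995300), whose locus encodes the kinase inhibitor p16 and the protein ARF, had 232 and 230 CPM in EL and 17 and 24.3 CPM in EH (log2 change 3.51, SE 0.151, adjusted p = 2.89e-32). The counts do not separate these products, which share coding exons. RB1 was not called, with 161 and 161 CPM in EL and 145 and 141 CPM in EH (log2 change 0.17, adjusted p = 0.165), except with total counts in place of the scaling. Of 30 tested genes of the RB pathway and G1 control, 7 were higher and 5 lower, near the shares over all genes, and without EL replicate 1 or EH replicate 1 only 4 were higher. With DESeq2 4 were higher, and with the breast cell spread 3 were higher and 3 lower. Cyclin D1 (CCND1), which with CDK4 and CDK6 starts RB phosphorylation, had 257 and 269 CPM in EL and 912 and 948 CPM in EH (log2 change −1.82, SE 0.0541, adjusted p = 3.78e-42). Cyclin E2 (CCNE2), which acts at entry into S phase, went the other way, with 49.1 and 64.4 CPM in EL and 20.7 and 19.8 CPM in EH (log2 change 1.47). SKP2, which marks the inhibitor p27 for destruction, had 101 and 95.2 CPM in EL and 39.1 and 35 CPM in EH (log2 change 1.40). TERT, the catalytic subunit of telomerase, was lower in EL in footprints, with 167 and 176 CPM against 335 and 361 CPM in EH (log2 change −1.02, SE 0.0785, adjusted p = 8.88e-19). Its RNA was 114 CPM in the EL library and 117 CPM in the EH library, so the footprint difference was not seen in that single pair. HRAS was not called (33.6 and 33.1 CPM in EL, 28.8 and 26.1 CPM in EH, adjusted p = 0.296).

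Genes that copy DNA were higher in EL as a group, though by modest amounts. Of 58 tested, 45 were higher and 3 lower, beside 19.1% and 22.4% of all genes, with a median log2 change of 0.66 and 11 at least 2-fold higher. Origin licensing and helicase genes had 16 of 20 higher and none lower (median 0.90), and polymerases and fork proteins had 20 of 22 higher and none lower (median 0.69). CDC6, which loads the helicase onto origins, had 110 and 115 CPM in EL and 42.8 and 43.1 CPM in EH (log2 change 1.39, SE 0.14, adjusted p = 1.45e-13). Of the helicase subunits, MCM3 had 341 and 326 CPM in EL and 137 and 145 CPM in EH (log2 change 1.25), and MCM5 had 374 and 399 CPM in EL and 171 and 175 CPM in EH (log2 change 1.16). MCM7 was the subunit that was not called, at 466 and 486 CPM in EL and 458 and 420 CPM in EH (log2 change 0.11, adjusted p = 0.126), except with total counts in place of the scaling. The primase subunit PRIM1 had 79.4 and 81.1 CPM in EL and 39.9 and 33.2 CPM in EH (log2 change 1.12), and PCNA, the sliding clamp, had 629 and 648 CPM in EL and 416 and 397 CPM in EH (log2 change 0.65). UNG, which cuts uracil out of DNA, had the greatest rise of the list, with 79.8 and 84.8 CPM in EL and 21.4 and 24.3 CPM in EH (log2 change 1.85, SE 0.177, adjusted p = 1.54e-14). Nucleotide supply was less uniform, with 9 of 16 higher and 3 lower. Those 3 were RRM2, the small subunit of ribonucleotide reductase (log2 change −0.34), CAD, which starts pyrimidine synthesis (−0.45), and TYMS, which makes thymidylate (−0.18). None of these 3 was called with the breast cell spread, and TYMS was not called without EH replicate 2 (log2 change −0.10).

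E2F factors drive many of these genes, and the letters TTCCCGC, the core of their site, were searched in the same windows on both strands. They were in 15 of 50 replication genes with an entry (30%), against 9.39% of all genes tested and 5.59% of all promoters. In genes at least 2-fold higher in EL the share was 9.79%, and in those at least 2-fold lower it was 5.97%. The windows of 3 replication genes that hold the letters close to the start are printed, with the match in capitals.
MCM3 (chr6:52284743-52284862, minus strand): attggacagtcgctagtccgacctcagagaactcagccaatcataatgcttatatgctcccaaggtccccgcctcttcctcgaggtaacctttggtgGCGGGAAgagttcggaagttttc
PRIM1 (chr12:56752324-56752443, minus strand): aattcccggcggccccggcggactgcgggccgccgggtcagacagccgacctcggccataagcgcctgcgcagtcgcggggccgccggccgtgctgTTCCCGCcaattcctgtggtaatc
CHAF1A (chr19:4402520-4402639, plus strand): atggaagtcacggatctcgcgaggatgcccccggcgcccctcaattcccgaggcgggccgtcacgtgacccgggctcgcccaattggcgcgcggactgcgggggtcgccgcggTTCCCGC
The match ended 16 bases before the start of MCM3, 17 before that of PRIM1 and directly at that of CHAF1A, where the gene codes for the large subunit of the histone chaperone that follows the fork. CHAF1A had 55.6 and 53 CPM in EL and 25.8 and 29.7 CPM in EH (log2 change 0.98, SE 0.189, adjusted p = 1.34e-05).

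Among 40 genes of ribosome assembly, 27 were higher and 1 lower in EL, beside 19.1% and 22.4% of all genes. Their median log2 change was 0.41, and none reached 2-fold. NPM1, a nucleolar histone chaperone, had 1717 and 1737 CPM in EL and 983 and 987 CPM in EH (log2 change 0.81, SE 0.0371, adjusted p = 9.55e-31). NOLC1, which organises the nucleolus, had 223 and 199 CPM in EL and 111 and 108 CPM in EH (log2 change 0.95). Such small differences depended on the low spread of these libraries. With EH replicate 1 left out 16 were higher and none lower, and with DESeq2 or the breast cell spread 13 were higher and none lower. The lower call was also lost without EL replicate 2 or EH replicate 2. Chromatin genes were mixed, with 11 of 24 higher and 4 lower beside 19.1% and 22.4% of all genes, but 7 higher without EH replicate 1, 6 with DESeq2 and 5 with the breast cell spread. The nuclear lamin gene LMNA had 1195 and 1284 CPM in EL and 1965 and 2005 CPM in EH (log2 change −0.68), while NASP, a histone chaperone, had 340 and 341 CPM in EL and 207 and 201 CPM in EH (log2 change 0.74).

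**Figure D3:**
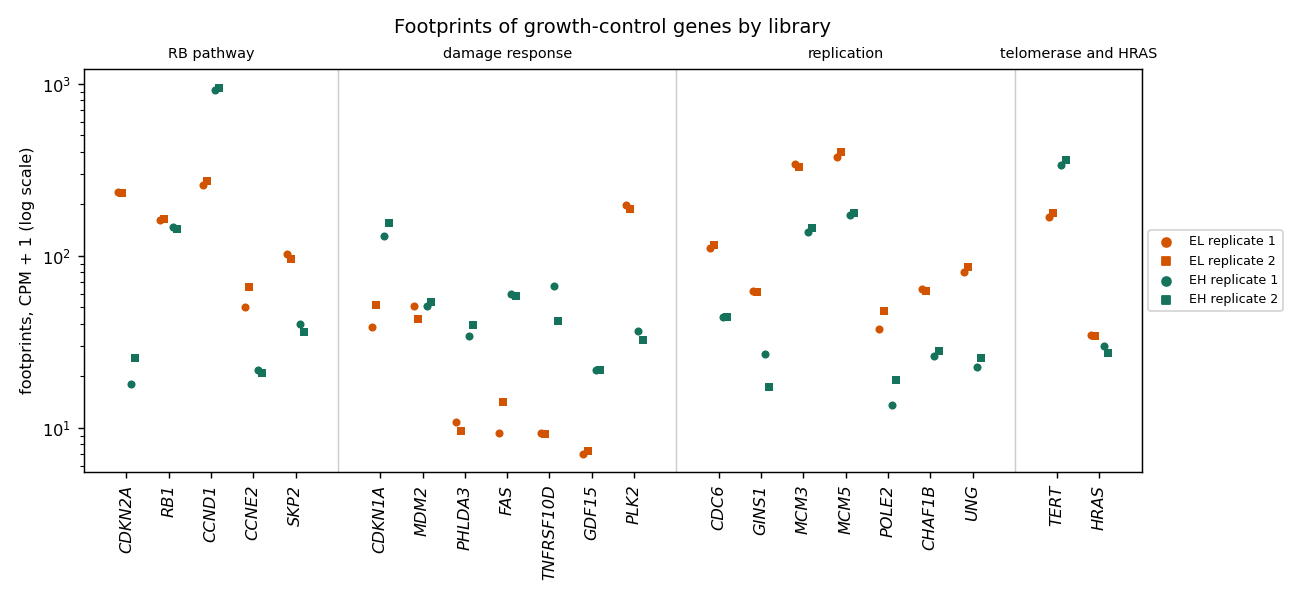
Footprints in each library (CPM + 1, log axis) for genes of the RB pathway, the damage response, DNA replication, and TERT and HRAS, with EL to the left of EH. CDKN1A, CCND1 and TERT sit lower in EL, CDKN2A and MCM3 higher, and the HRAS points of EL (33.6 and 33.1 CPM) lie near those of EH (28.8 and 26.1 CPM).

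Genes of the extracellular matrix were widely lower in EL, and the collagens had the lowest median of the 21 lists. Among collagen chains, 16 of 21 tested were lower and 3 higher, beside 22.4% and 19.1% of all genes, with a median log2 change of −1.90. Fibrillar, basement membrane and fibril-associated chains all had more members lower than higher. Type VI collagen, which forms beaded filaments around cells, fell in all 3 chains tested. COL6A3 (GRCh37 chr2:238232646-238322971) had 1022 and 989 CPM in EL and 4028 and 4168 CPM in EH (log2 change −2.02, SE 0.0321, adjusted p = 2.55e-59). COL6A2 had 571 and 584 CPM in EL and 3151 and 3313 CPM in EH (log2 change −2.48), and COL6A1 had 468 and 472 CPM in EL and 2357 and 2501 CPM in EH (log2 change −2.37). Each chain of this trimer was thus at least 2-fold lower. The basement membrane chain COL4A1 had 104 and 105 CPM in EL and 406 and 375 CPM in EH (log2 change −1.90). Its partner COL4A2 had 163 and 194 CPM in EL and 737 and 724 CPM in EH (log2 change −2.05). COL15A1, a chain that links basement membrane to the fibrils beneath, was nearly absent from EL, with 1.51 and 2.72 CPM against 119 and 125 CPM in EH (log2 change −5.84, SE 0.254, adjusted p = 4.51e-32).

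Not every collagen was lower. COL8A1, a short-chain collagen of vessel walls, had 105 and 96.6 CPM in EL and 43.6 and 45.8 CPM in EH (log2 change 1.18, SE 0.144, adjusted p = 9.63e-11). COL11A1, a minor fibrillar chain, had 83.2 and 90.2 CPM in EL and 62.7 and 58.4 CPM in EH (log2 change 0.51), which was not called by DESeq2 or with the breast cell spread. COL4A5, a rarer chain of basement membrane, was the third that rose (log2 change 1.09), but the call was lost without EL replicate 2 (log2 change 0.79), without EH replicate 2 (0.85) and with DESeq2. COL5A2, which limits fibril width, was not called, with 373 and 375 CPM in EL and 333 and 360 CPM in EH (adjusted p = 0.159), except with total counts. Its partner COL5A1 was lower, with 150 and 145 CPM in EL and 391 and 387 CPM in EH (log2 change −1.40). The chains of type V collagen thus did not move together.

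Enzymes that mature collagen fell with it, 23 of 27 lower and 1 higher (2 without EL replicate 1), by less (median log2 change −0.75). By comparison, 22.4% of all genes were lower and 19.1% higher. Enzymes acting outside the cell had a median of −1.63 and those in the endoplasmic reticulum −0.52. LOX, which cross-links collagen and elastin, had 426 and 455 CPM in EL and 1603 and 1667 CPM in EH (log2 change −1.89, SE 0.0439, adjusted p = 6.94e-49). PCOLCE, which helps to cut off the C-terminal propeptide, had 201 and 225 CPM in EL and 994 and 969 CPM in EH (log2 change −2.21). The transglutaminase TGM2, which bonds matrix proteins to each other, had 11 and 12.2 CPM in EL and 159 and 131 CPM in EH (log2 change −3.66). Inside the cell the collagen chaperone SERPINH1 had 838 and 869 CPM in EL and 1110 and 1101 CPM in EH (log2 change −0.37), not called with the breast cell spread. PLOD2, a lysyl hydroxylase whose product sets the type of cross-link, was the member that rose, with 373 and 342 CPM in EL and 230 and 216 CPM in EH (log2 change 0.68, SE 0.0735, adjusted p = 1.39e-12).

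Other matrix glycoproteins were lower in 51 of 58 tested and higher in 1, beside 22.4% and 19.1% of all genes (median log2 change −1.64). All 17 elastic fibre genes were lower. ELN (GRCh37 chr7:73442119-73484237), which codes for tropoelastin, had 1.13 and 0.453 CPM in EL and 87.8 and 95.2 CPM in EH, from 4 counts in EL and 225 in EH (log2 change −6.68, or −7.44 without EL replicate 1). MFAP5, a microfibril protein, had 0.378 and 0.907 CPM in EL and 66.4 and 76.4 CPM in EH (3 counts in EL, ratio 115, interval 38.6 to 562, with a fitted log2 change of −6.70, or −7.32 without EL replicate 2). LTBP2, which binds fibrillin microfibrils, had 12.5 and 15.4 CPM in EL and 196 and 199 CPM in EH (log2 change −3.83, SE 0.149, adjusted p = 5.75e-35). The fibrillins that form the microfibril were lower by less. FBN1 had 448 and 398 CPM in EL and 994 and 960 CPM in EH (log2 change −1.20), and FBN2 had 101 and 101 CPM in EL and 633 and 662 CPM in EH (log2 change −2.68).

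Proteoglycans had 13 of 15 lower and none higher, beside 22.4% and 19.1% of all genes (median −2.73). Lumican (LUM), which spaces collagen fibrils, had 56.3 and 55.3 CPM in EL and 822 and 782 CPM in EH (log2 change −3.84, SE 0.0784, adjusted p = 2.29e-52). Biglycan (BGN), a related small proteoglycan, had 102 and 95.7 CPM in EL and 678 and 680 CPM in EH (log2 change −2.78). PODN, a member of the same leucine-rich family, had 0.756 and 0 CPM in EL, 2 counts in all, and 37.6 and 39.5 CPM in EH (ratio 93.4, interval 25.2 to 782), with a fitted log2 change of −9.14 without EL replicate 1 and −5.55 without EL replicate 2. GPC1, a heparan sulfate proteoglycan held on the membrane, had 49.5 and 53 CPM in EL and 328 and 352 CPM in EH (log2 change −2.73). Small leucine-rich and membrane-bound proteoglycans were thus both lower. Adhesive and matricellular proteins had 21 of 26 lower. THBS1 (GRCh37 chr15:39873280-39891667), which binds many matrix proteins and activates latent TGF-beta, had 1405 and 1407 CPM in EL and 8775 and 8986 CPM in EH (log2 change −2.66, SE 0.028, adjusted p = 6.26e-71). LAMA4, a laminin chain, had 20.4 and 29 CPM in EL and 258 and 243 CPM in EH (log2 change −3.36). The related proteins CTGF and CYR61, both targets of YAP, parted. CTGF had 184 and 182 CPM in EL and 628 and 634 CPM in EH (log2 change −1.79, SE 0.0633, adjusted p = 2.4e-37). CYR61 was the member that rose, with 870 and 909 CPM in EL and 667 and 681 CPM in EH (log2 change 0.40, adjusted p = 1.53e-11), although not with the breast cell spread (adjusted p = 0.103).

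Proteases that remodel matrix, and their inhibitors, were lower in 27 of 34 tested and higher in 2, or in 1 without EL replicate 2 or EH replicate 1 (median log2 change −1.27). Enzymes and inhibitors fell together, with 11 of 15 metalloproteases, 8 of 11 plasminogen activators and cathepsins and 8 of 8 inhibitors lower. By comparison, 22.4% of all genes were lower and 19.1% higher. MMP1, interstitial collagenase, had 1374 and 1316 CPM in EL and 3379 and 3376 CPM in EH (log2 change −1.33, SE 0.0309, adjusted p = 8.69e-49). MMP14, a membrane-bound collagenase, had 138 and 140 CPM in EL and 438 and 448 CPM in EH (log2 change −1.67). FAP, a serine protease known from activated fibroblasts, had 12.5 and 18.6 CPM in EL and 190 and 187 CPM in EH (log2 change −3.62). Cathepsin B (CTSB), a lysosomal protease, had 771 and 809 CPM in EL and 2271 and 2279 CPM in EH (log2 change −1.53). Among inhibitors, TIMP3 had 252 and 241 CPM in EL and 1233 and 1299 CPM in EH (log2 change −2.36, SE 0.0512, adjusted p = 1.24e-50). SERPINF1 (PEDF), a secreted inhibitor of vessel growth, had 0.756 and 0.907 CPM in EL and 62 and 75.5 CPM in EH (log2 change −6.26). PLAT, the tissue activator of plasminogen, rose, with 142 and 141 CPM in EL and 93.8 and 102 CPM in EH (log2 change 0.54).

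By share of all footprints, collagen chains took 0.662% and 0.664% in the EL libraries and 3.34% and 3.43% in the EH libraries. Other matrix glycoproteins took 1.01% and 1.00% in EL and 3.0% and 3.04% in EH. The interferon list took 1.70% and 1.74% in EL and 0.392% and 0.390% in EH. Exact binomial intervals of 95%, which cover counting error only, did not overlap between the lines in any of the 21 lists. That held also for RB pathway and G1 control (0.223% and 0.220% in EL, 0.240% and 0.246% in EH). The lack of overlap therefore does not set the 7 plotted lists apart. These are shares of counted footprint reads and not of protein. Whether counting was limited to coding regions is not known, so not every read need mark a ribosome on a message.

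**Figure D4:**
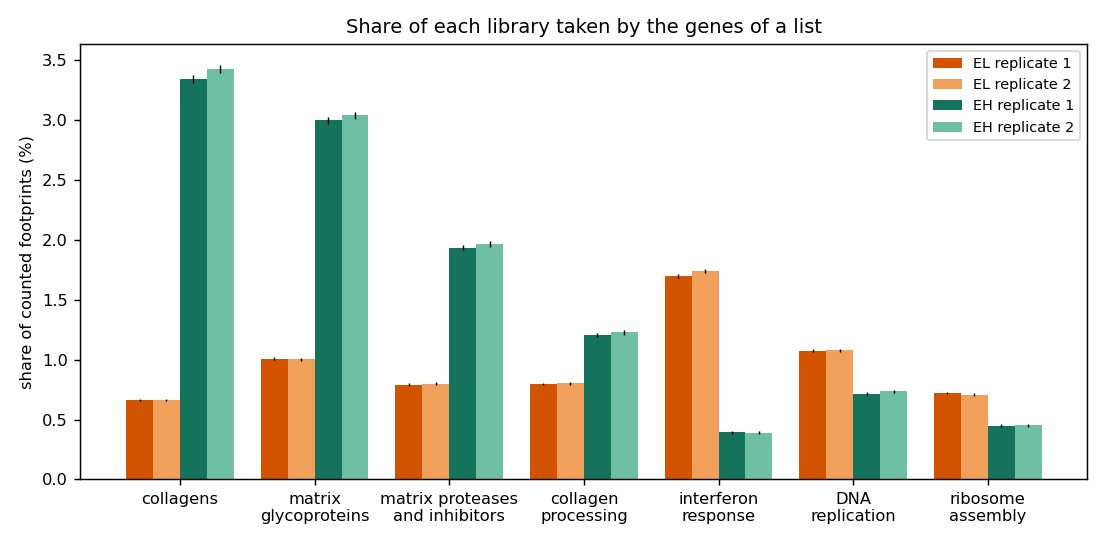
Share of all footprints in a library (%) that fell on each of 7 gene lists, with EL bars left of EH bars and 95% exact binomial intervals. The interferon bars are taller in EL (1.70% and 1.74%, against 0.392% and 0.390%), and the collagen bars shorter (0.662% and 0.664%, against 3.34% and 3.43%).

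Signalling by the TGF-beta and BMP family was lower in 26 of 41 tested members and higher in 6 (median log2 change −0.70). By comparison, 22.4% of all genes were lower and 19.1% higher. Ligands differed in direction. TGFB1, the main inducer of collagen in fibroblasts, had 57.5 and 61.2 CPM in EL and 140 and 134 CPM in EH (log2 change −1.21, SE 0.119, adjusted p = 4.69e-14). TGFB2 had 36.3 and 30.4 CPM in EL and 5.17 and 7.19 CPM in EH (log2 change 2.45, SE 0.319, adjusted p = 9.25e-10). BMP4 was higher too, with 22.7 and 29.5 CPM in EL and 3.69 and 2.7 CPM in EH (log2 change 2.97). Receptors TGFBR1 and TGFBR2 fell by 0.94 and 0.78 on the log2 scale. Antagonists of BMPs also parted. GREM1 had 264 and 263 CPM in EL and 1087 and 1047 CPM in EH (log2 change −2.02), whereas CHRDL1 had 24.6 and 22.7 CPM in EL and 2.21 and 2.7 CPM in EH (log2 change 3.25). Of 12 target genes, 11 were lower. SKIL, a repressor of SMADs, was higher (log2 change 0.63), but was not called without EL replicate 2, without EH replicate 2, with DESeq2 or with the breast cell spread. ACTA2, the smooth muscle actin of myofibroblasts, had 19.7 and 19.9 CPM in EL and 150 and 129 CPM in EH (log2 change −2.82, SE 0.155, adjusted p = 3.01e-26). ID1, a target of BMPs, had 194 and 180 CPM in EL and 406 and 402 CPM in EH (log2 change −1.11).

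Growth factor genes were lower in 24 of 39 tested and higher in 6, beside 22.4% and 19.1% of all genes (median −0.71). All 6 tested IGF-binding proteins were lower by more than 2-fold. IGFBP5 had 45.7 and 34.5 CPM in EL and 490 and 462 CPM in EH (log2 change −3.55, SE 0.0963, adjusted p = 1.29e-44). IGFBP7 had 236 and 235 CPM in EL and 1136 and 1199 CPM in EH (log2 change −2.31), and IGFBP6 had 287 and 276 CPM in EL and 1126 and 1135 CPM in EH (log2 change −2.00). The growth factor IGF2 had 3.4 and 3.63 CPM in EL and 90.1 and 97 CPM in EH (log2 change −4.71), and the receptor IGF1R had 19.3 and 13.6 CPM in EL and 65.7 and 66.5 CPM in EH (log2 change −1.98). IGF2, its main signalling receptor and the tested binding proteins were therefore all lower in EL. IGF2 overlaps a readthrough gene, so its counts are uncertain, and its RNA was under 10 CPM in each line (1.38 CPM in EL, 0 in EH). Receptor kinases were not uniform. PDGFRB, a receptor of mesenchymal cells, had 58.6 and 53.5 CPM in EL and 156 and 153 CPM in EH (log2 change −1.46). The ephrin receptor EPHB2 rose, with 43.1 and 40.3 CPM in EL and 14 and 8.09 CPM in EH (log2 change 1.88, SE 0.252, adjusted p = 2.31e-09).

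In the Wnt pathway 11 of 19 tested genes were lower and 2 higher, beside 22.4% and 19.1% of all genes (median −0.86). WNT5A, a ligand of the branch that does not use beta-catenin, had 90.7 and 106 CPM in EL and 235 and 231 CPM in EH (log2 change −1.25, SE 0.0949, adjusted p = 4.31e-19). The receptor FZD7 had 27.2 and 39.9 CPM in EL and 161 and 164 CPM in EH (log2 change −2.30). The 2 members that rose were secreted decoys of Wnt. SFRP1 had 395 and 400 CPM in EL and 103 and 102 CPM in EH (log2 change 1.96, SE 0.0834, adjusted p = 1.41e-32), and FRZB had 8.32 and 11.3 CPM in EL and 1.48 and 0 CPM in EH (2 counts in EH, ratio 12, interval 3.13 to 102), with a fitted log2 change of 7.35 without EH replicate 1 and 2.67 without EH replicate 2. DKK1, which blocks the co-receptor, was lower at 578 and 557 CPM in EL, against 1059 and 1003 CPM in EH (log2 change −0.86).

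Adhesion genes were lower in 28 of 39 tested and higher in 3, beside 22.4% and 19.1% of all genes (median −1.01). Of 13 integrins, 12 were lower. ITGB1, the beta chain shared by most matrix integrins, had 1908 and 1937 CPM in EL and 4316 and 4181 CPM in EH (log2 change −1.15, SE 0.0292, adjusted p = 2.77e-46). ITGA2, which pairs with it to bind collagen, had 46.1 and 33.1 CPM in EL and 197 and 218 CPM in EH (log2 change −2.36). ITGA8 had no count in EL and 13.3 and 13.5 CPM in EH, at least 21.6-fold lower against a floor of 3 counts over the EL group. Cadherin 11 (CDH11), which joins fibroblasts to each other, had 133 and 140 CPM in EL and 387 and 365 CPM in EH (log2 change −1.47). Desmoplakin (DSP), a desmosome protein, had 45 and 51.2 CPM in EL and 256 and 231 CPM in EH (log2 change −2.35). CLDN11, a claudin of tight junctions, had the opposite pattern, with 196 and 183 CPM in EL and 9.6 and 13.5 CPM in EH (log2 change 4.06, SE 0.172, adjusted p = 1.15e-32). Receptors for matrix were thus mostly lower alongside the matrix.

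Among 43 tested transcription factors of mesenchymal and HOX families, 18 were lower and 5 higher, with 11 lower without EL replicate 1 and 9 lower and 2 higher with DESeq2. In the main fit 22.4% of all genes were lower and 19.1% higher. PRRX1, a homeobox factor of dermal mesenchyme, had 15.9 and 21.8 CPM in EL and 52.4 and 62.9 CPM in EH (log2 change −1.62, SE 0.201, adjusted p = 2.1e-10). FOXF1 had 17 and 17.2 CPM in EL and 55.4 and 60.2 CPM in EH (log2 change −1.75). ZEB1, a repressor of epithelial genes, had 29.5 and 29 CPM in EL and 71.6 and 53 CPM in EH (log2 change −1.11). SOX9 and RUNX2, factors of cartilage and bone, rose. SOX9 had 17 and 26.7 CPM in EL and 3.69 and 4.49 CPM in EH (log2 change 2.39, SE 0.389, adjusted p = 3.88e-07), and RUNX2 had 20.4 and 29.9 CPM in EL and 9.6 and 10.8 CPM in EH (log2 change 1.29). SOX11, a factor of embryonic mesenchyme and neurons, had 0 and 0.453 CPM in EL, a single count, and 54.6 and 47.6 CPM in EH (ratio 250, interval 44 to 9939), with a fitted log2 change of −6.62 without EL replicate 1 and −9.62 without EL replicate 2.

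Complement genes had 12 of 14 lower and 1 higher, beside 22.4% and 19.1% of all genes (median −1.73). All 4 tested proteases were lower. C1S, a protease that starts the classical pathway, had 28.3 and 25.8 CPM in EL and 350 and 368 CPM in EH (log2 change −3.72, SE 0.11, adjusted p = 2.64e-42). Its partner C1R had 86.9 and 94.7 CPM in EL and 535 and 572 CPM in EH (log2 change −2.61). C1QBP, a mitochondrial protein named for binding C1q, was the member that rose (559 and 505 CPM in EL, 214 and 226 CPM in EH). Of 14 S100 and annexin genes, 10 were lower and none higher, beside 22.4% and 19.1% of all genes. S100A6, a calcium-binding protein, had 2147 and 2202 CPM in EL and 4172 and 4179 CPM in EH (log2 change −0.94). In oxidative defence 20 of 40 were lower and 4 higher, beside 22.4% and 19.1% of all genes. However, 10 were higher with total counts in place of the scaling and 2 without EH replicate 2. With the breast cell spread 12 were lower and 0 higher. HMOX1, which degrades haem, had 19.3 and 13.6 CPM in EL and 53.9 and 57.5 CPM in EH (log2 change −1.73), and SLC7A11, the cystine importer, had 32.5 and 32.6 CPM in EL and 95.2 and 95.2 CPM in EH (log2 change −1.55). In retinoid metabolism 4 of 11 were lower and 1 higher, beside 22.4% and 19.1% of all genes, and 6 were not called; none was higher without EL replicate 1 or EH replicate 1. RDH10, which makes retinaldehyde, had 3.78 and 4.99 CPM in EL and 108 and 107 CPM in EH (log2 change −4.61). CRABP2, a carrier of retinoic acid, had 20.4 and 20.4 CPM in EL and 269 and 279 CPM in EH (log2 change −3.74), while its RNA was under the 10 CPM minimum in each line (0.922 CPM in EL, 0.909 CPM in EH). Of 23 apoptosis regulators 6 were higher and 1 lower, beside 19.1% and 22.4% of all genes. Of these, 3 were higher without EH replicate 2 and 2 with DESeq2, and none was lower without either EH replicate. CASP1, the caspase of inflammasomes, was among those that rose (16.3 and 16.3 CPM in EL, 5.17 and 5.39 CPM in EH, log2 change 1.62).

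Over all genes, the ends of the distribution held members of the same groups and some outside them. A2M, a broad protease inhibitor of blood and tissue, had no count in EL and 53.2 and 55.7 CPM in EH, at least 87.8-fold lower. MGP, which keeps matrix from calcifying, had 0.378 and 0 CPM in EL, a single count, and 117 and 107 CPM in EH (ratio 545, interval 96.9 to 21588), with a fitted log2 change of −10.68 without EL replicate 1 and −7.98 without EL replicate 2. STMN2, a tubulin regulator known from neurons, had 0.378 and 0.453 CPM in EL, 2 counts in all, and 45.8 and 41.3 CPM in EH (ratio 106, interval 28.7 to 888). KISS1, the precursor of kisspeptin, had 3.78 and 2.72 CPM in EL and 126 and 137 CPM in EH (log2 change −5.29, SE 0.227, adjusted p = 2.2e-32). In the other direction PRUNE2 had 20.4 and 25.4 CPM in EL and 0.738 and 0.898 CPM in EH (2 counts in EH, ratio 28, interval 7.56 to 234). Genes that were nearly silent in one line and well covered in the other therefore occurred both ways.

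RNA and harringtonine libraries, which the footprint calls did not use, gave values on the same side for most of these genes. There was 1 RNA library per line, with 2073668 counts in EL and 2387100 in EH, so its ratios carry no test. Of the 471 genes at least 2-fold higher in EL footprints, 377 reached 10 CPM of RNA in either line, and 359 of these had a higher RNA value in EL, 221 by at least 2-fold. Median log2 changes of that set were 1.46 in footprints and 1.25 in RNA. Of the 805 at least 2-fold lower, 646 reached that level, 628 had a lower RNA value in EL and 400 were at least 2-fold lower, with medians of −1.47 in footprints and −1.21 in RNA. Across 8529 genes the log2 changes of footprints and RNA had a Pearson r of 0.81, as a description, since all genes share the same libraries. Of these 8529 genes, 4130 had more RNA in EL and 4399 less, with a median RNA log2 change of −0.025. In the interferon list 69 of 76 genes had more RNA in EL, with a median RNA log2 change of 2.70. The footprint median of that list was 1.81, over the 79 members tested. IFIT1 RNA was 1698 CPM in EL and 81.4 CPM in EH. Of matrix glycoproteins 51 of 52 had less RNA in EL. In the DNA replication list 52 of 58 had more RNA in EL. Whether RNA and footprints changed by different amounts was not tested here, with single RNA libraries.

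**Figure D5:**
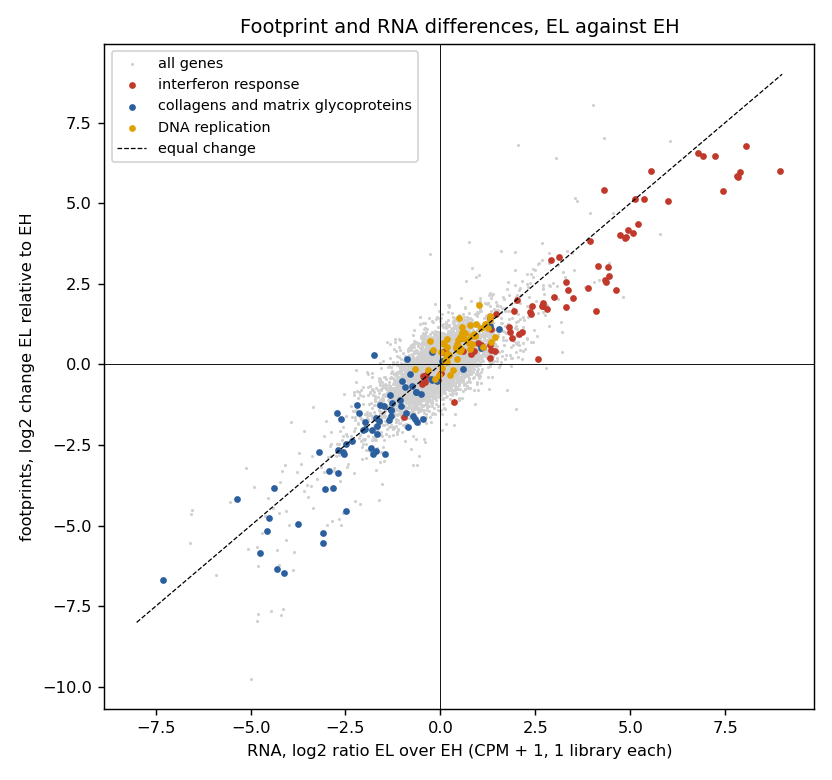
Log2 change of each gene in RNA (x axis, 1 library per line) against its log2 change in footprints (y axis), EL relative to EH, for 8529 genes with at least 10 CPM of RNA in either line; the dashed line marks equal change. Red interferon genes lie mostly in the upper right (69 of 76 with more RNA in EL, beside 4130 of all 8529 genes). Blue collagens and matrix glycoproteins lie mostly in the lower left, and DNA replication genes are yellow.

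Harringtonine, given at 2 µg/ml for 5 min, holds ribosomes at start codons while others run off, and its libraries were shallower, with 173736 and 171538 counts in EL and 144266 and 129365 in EH. Of 3555 genes tested there, 269 (7.57%) were higher and 391 (11%) lower in EL. Among the 135 genes at least 2-fold higher in cycloheximide footprints that could be tested, 131 were on the same side and 90 were called higher, with none called lower. Among the 304 at least 2-fold lower, 294 were on the same side and 224 were called lower, with none called higher. In the interferon list 35 of 44 were called higher and 1 lower. Matrix glycoproteins had 31 of 41 called lower, and collagens 15 of 20 lower and 3 higher. DNA replication genes had 4 of 40 called higher and none lower. COL5A2, which was not called in cycloheximide footprints, was higher in EL under harringtonine (log2 change 0.79, adjusted p = 1.22e-15). TERT was lower under harringtonine too (log2 change −1.11, adjusted p = 1.28e-08), and ISG15 was higher (log2 change 3.41, adjusted p = 1.35e-18).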

How the data were processed

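The deposited values used here are counts of reads per RefSeq transcript. Per the submitters' processing notes the authors aligned reads with TopHat to hg19 (GRCh37). Versions, and the program that counted, are not named there. Each table held 36499 transcript rows for 19137 symbols. For the 7636 symbols with several transcripts, the row with the highest mean count over the libraries compared stood for the gene, and isoforms were not separated. The 6 BJ cycloheximide libraries were fitted together, ELR only for the spread, with the edgeR 4.0.16 quasi-likelihood test (R 4.3.3, limma 3.58.1), two-sided, after filterByExpr (minimum count 10, total 15) and TMM scaling. P-values were Benjamini-Hochberg adjusted over all genes tested. Harringtonine libraries were fitted in the same way. RNA, with 1 library per line, was given as log2 ratios of CPM plus 1, without a test. Tests were tried on simulated data. Where a line had 1 to 3 counts, a ratio with its 95% counting interval is given, since the fitted change then depends on the prior count. With 0 counts, a bound against a floor of 3 counts is given. Gene positions are on GRCh37 and promoters are from the RefSeq table for GRCh38.p14.

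Genes were named as growth-control genes given whatever their values (among them TERT, HRAS, RB1, CDKN1A, CDKN2A and MDM2), as the 20 largest changes each way with at least 20 CPM, and as up to 8 called members each way of each list. Some genes under this rule are not reported here. Other members named for their role were chosen after their values were seen. The members and the 21 lists were chosen with earlier results of these data known. The labels give no batch. Deviations of libraries with the same replicate number did not go together (correlations −0.0114, 0.0353 and 0.0109), so the numbers were not taken as pairs. Alternatives were RLE scaling, total counts, no filter, DESeq2 1.42.0, no ELR libraries, a replicate block, each library left out, means over transcripts and the spread of the breast cell libraries.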

Additional observations from a re-analysis of the deposited data

How the results depend on the processing

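No gene called between EL and EH was called in the opposite direction by any of the 12 alternatives run. Counts of genes at least 2-fold apart stayed within 1.5 times. In cycloheximide footprints DESeq2 called 1050 higher and 1407 lower, and the spread of the breast cell libraries (coefficient of variation 12.3%, against 1.80%) gave 1045 and 1474. Leaving out a library gave 1356 to 1735 higher and 1699 to 1987 lower. With the replicate block 4118 genes were called rather than 4148, and of the named genes only BAX changed its call (adjusted p = 0.0446 with the block). Under harringtonine, 597 higher and 247 lower were called with total counts, 79 and 176 with DESeq2, and 258 lower without the filter. Leaving out a library there gave 152 to 160 higher and 259 to 303 lower. Of 295 named genes, DESeq2 lost 39 calls, the breast cell spread 36, and leaving out a library 13 to 26. Of 42 list counts, 30 stayed within 1.5 times under DESeq2 and under the breast cell spread. Calls that were lost were not checked for a change of sign over all genes. Of the named genes, IFNAR1 and IFNAR2, which were not called, changed sign. The gene IFNAR1 ranged from −0.68 to 0.15 and the gene IFNAR2 from −0.021 to 0.74 when a library was left out. The cause of these shifts was not tested.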

Other observations

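Histone genes whose symbols begin with HIST were in none of the lists and were nearly all higher in EL. Histone genes under other names, such as H2AFZ, were among the chromatin genes above and are not counted here. Of 58 HIST symbols tested, 54 were higher and 1 lower, beside 19.1% and 22.4% of all genes. Their log2 changes ran from −0.63 to 2.80 with a median of 1.20, and 45 of 46 on chromosome 6 were higher. Many are near-identical copies that share reads, so single members are uncertain. Over the genome, genes with at least 20 CPM were taken in order in 154 full bins of 40 neighbours, whose medians ran from −0.42 to 1.18. The highest lay over the histone cluster on chromosome 6 (GRCh37 chr6:26017260-27823487), where 38 of 40 genes were higher in EL and the median RNA change was 0.72.

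The lowest bin, on chromosome 5 (GRCh37 chr5:137475459-140892542), had a median of −0.42 in footprints and −0.29 in RNA. It held 15 protocadherin genes. The 22 gamma protocadherins tested, adhesion proteins made from a cluster with shared final exons, were all lower in EL, from −1.53 to −0.69. They share reads through those exons and are not independent. A bin on chromosome 7 (GRCh37 chr7:100861446-128050040) had 19 genes lower and 5 higher, with medians of −0.39 in footprints and −0.35 in RNA. A bin on chromosome 4 (GRCh37 chr4:99391518-123819391) had 20 lower and 2 higher, with medians of −0.33 and −0.28. Of the 154 full bins, 8 had a median of at least 0.3 either way. Besides those above, bins on chromosome 6 (medians 0.33 and 0.36) and on chromosome 22 (0.32 and 0.31) were higher in EL. Copy number was not measured, and the bins were found by looking at these values.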
